A study of Homo sapiens with 2 samples.

Results

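Chromosome 17 carried 1372 of the 21361 sites at which PAX5 chromatin immunoprecipitation (ChIP) exceeded input DNA, or 6.42% of the list (Wilson 95% interval 6.10 to 6.76). Every peak that the deposited list places on this chromosome was taken, with no further selection. PAX5 is a transcription factor with a DNA-binding paired domain. It commits lymphoid progenitors to the B lineage, activates genes of the B-cell receptor pathway and represses genes of other lineages. Chromosome 17 is gene-rich and bears B-lineage genes such as CD79B, which encodes a signalling chain of the B-cell receptor, and IKZF3, which encodes the Ikaros family factor Aiolos. Positions are on hg19 and count from 1. Peaks were not assigned to genes and no sequence is shown, because neither the sequence nor the gene annotation of hg19 was used here.

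The study compared 2 samples of the human cell line NALM6, a widely used model of B-cell precursor leukaemia, with 1 sample per group and no replicate. One is an untreated culture precipitated with an Abcam antibody to PAX5, and the other is an input control made without antibody, whose title carries the unexplained name RXL. Both were grown for 4 days in phenol red-free RPMI with 10% serum and 2 mM glutamine. The ChIP pool held 46190180 tags and the control 25416858. With 1 sample per group no test between conditions can be made. All intervals below are 95% intervals of counting error or of the position of a median among peaks. They treat peaks as independent, and peaks are not replicates.

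PAX5 sites lay more densely on chromosome 17 than on the pooled other autosomes, while the typical site was about as strong. Between the first and the last summit, 80.9 Mb apart, the density was 16.96 peaks per Mb (exact Poisson interval 16.1 to 17.9). The other 21 autosomes had 7.23 per Mb (7.13 to 7.33), a ratio of 2.35 (exact conditional interval 2.22 to 2.48). The density was 0.839 times that of chromosome 19 (0.776 to 0.908) and 0.779 times that of chromosome 22 (0.712 to 0.854). By this density chromosome 17 had rank 3 of 22, behind chromosomes 22 and 19. The rank and both ratios hold for spans between outer summits, which were 33.8 Mb on chromosome 22 and 58.8 Mb on chromosome 19. The order over whole chromosome lengths was not tested and may differ. The intervals of the ratios exclude 1, but they treat peaks as independent and are too narrow where peaks cluster. Peaks of chromosome 17 covered 628 kb, or 0.776% of the span, against 0.324% on the other autosomes. Of the 1372 summits, 865 (63.0%, interval 60.5 to 65.6) had another within 10 kb, compared with 51.2% (50.5 to 51.9) on the other autosomes, 64.6% on chromosome 19 and 61.4% on chromosome 22.

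The strength of a site was read from 2 quantities. The first is the number of ChIP reads over the summit, and the second is the control background, the number of input reads that the peak caller sets against it. Fold enrichment is the ratio of both after the ChIP is scaled to the depth of the control. Judged by its value, the background came from a window at the summit for 59.2% of chromosome 17 peaks. For 36.8% it came from a 1 kb window, for 3.57% from a 10 kb window and for 0.437% from the genome mean. The median chromosome 17 peak had 60 reads (59 to 62), with quartiles of 48 and 80, over a background of 8.10 reads (8.0 to 8.55). On the other autosomes the medians were 61 reads (61 to 62) and 8.10 reads (8.0 to 8.10). The median fold was 3.77 (3.69 to 3.85) and ranked last of the 22 autosomes, with 3.89 (3.85 to 3.90) on the others. The intervals meet, and the difference in the medians is small beside the quartiles of 3.14 and 4.88 on chromosome 17. Chromosome 22 had a median fold of 4.00 (3.91 to 4.15), and its interval lies above that of chromosome 17. Chromosome 19 had 3.90 (3.84 to 3.99), and its interval overlaps that of chromosome 17. Peaks were 394 bp wide at the median (383 to 405), with quartiles of 297 and 535.5 bp, against 383 bp (379 to 387) on the other autosomes.

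The share of strong sites was slightly below that of the whole list at a fold of 5 and close to it at a fold of 10. A fold of at least 5 was reached by 309 peaks (22.5%, interval 20.4 to 24.8), where the share over all 21361 peaks was 25.0%. A fold of at least 10 was reached by 23 (1.68%, 1.12 to 2.50), where the share over all peaks was 1.72%. On chromosomes 19 and 22 the share at a fold of 10 was 2.94% (2.12 to 4.07) and 3.53% (2.42 to 5.13), with intervals that overlap that of chromosome 17. The count depends on the exact limit, since 9 further peaks had folds from 9.5 to under 10, the nearest at 9.9999 (78887709 to 78888883).

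**Figure D1:**
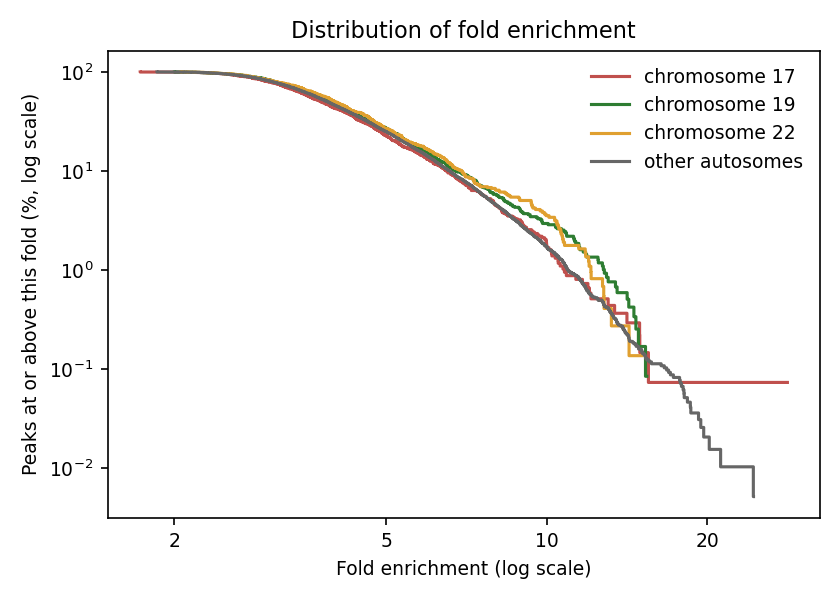
Share of peaks (%, log scale) at or above each fold enrichment (log scale) on chromosomes 17, 19 and 22 and on all autosomes other than 17. At a fold of 10 the line of chromosome 17 (1.68%) lies with the other autosomes (1.69%) and below chromosomes 19 (2.94%) and 22 (3.53%), and its single site at 28.2 extends past every other line.

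Along the chromosome the sites were unevenly spread. The 82 bins of 1 Mb held between 0 and 70 peaks, with a median of 12.5, and 7 bins held none. The 8 densest bins contained 397 peaks, or 28.9% of the chromosome's total (26.6 to 31.4). They formed 3 places: the start of the short arm (1000001 to 2000000, 49 peaks), an isolated maximum within the short arm (17000001 to 18000000, 50 peaks), and the end of the long arm, where the bins starting at 73000001, 74000001 and 75000001 held 41, 46 and 41 peaks, that at 78000001 held 38 and the following pair 70 and 62. The short-arm maximum stood out from its surroundings, as the bins on either side held 19 and 7 peaks. The stretch from 73 Mb to the last summit took 10.0% of the span and held 354 peaks, or 25.8% (23.6 to 28.2).

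**Figure D2:**
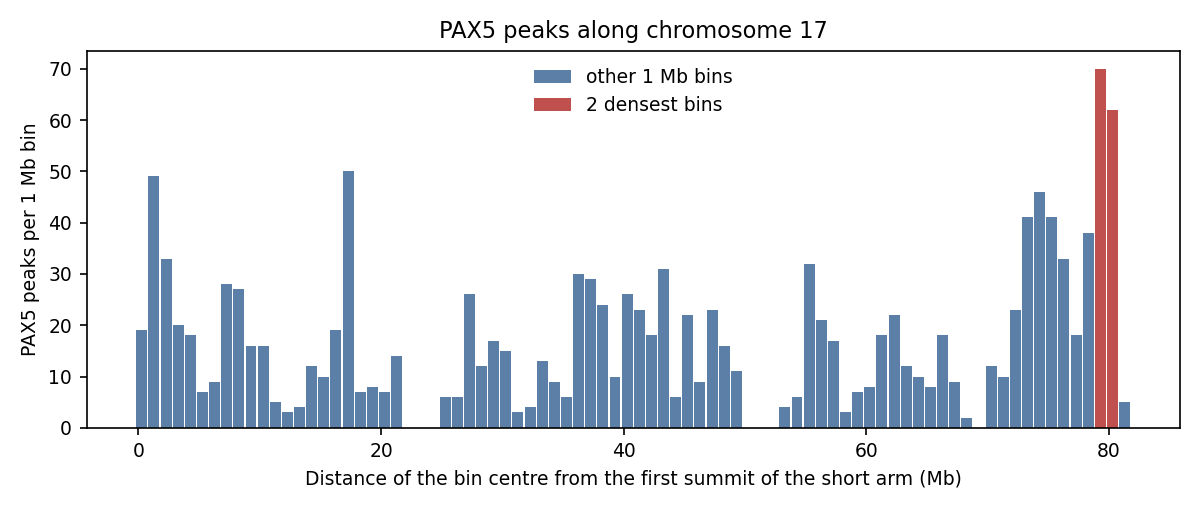
Number of PAX5 peaks in each 1 Mb bin of chromosome 17 against the distance of the bin from the first summit of the short arm (Mb), with the 2 densest bins in red. The red bars (70 and 62 peaks) stand above all others, the next highest being 50 and 49, and 3 wide gaps hold no bar.

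Only 3 gaps between neighbouring summits exceeded 1 Mb. The widest spanned 4.07 Mb, from the summit at 21295774 to that at 25363544, a region known to hold the centromere. The next ran for 3.44 Mb from 49879270 to 53315619 and left 3 whole bins of the long arm empty. Another ran for 1.98 Mb from 68338949 to 70314097. All other gaps were under 1 Mb, and the median gap was 15.1 kb, against 28.1 kb on the other autosomes. Whether the empty stretches lie in unsequenced or unalignable DNA was not tested.

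Both arms were occupied at similar density outside the centromeric gap. The short arm had 381 peaks, 18.1 per Mb (16.3 to 19.98), and the long arm 991, 17.8 per Mb (16.7 to 18.9), a ratio of 1.02 (0.901 to 1.145). The median fold was 3.72 (3.58 to 3.85) on the short and 3.79 (3.69 to 3.91) on the long arm. A fold of at least 10 was reached by 10 of the 381 short-arm and 13 of the 991 long-arm peaks. The share was 1.68% over the chromosome and 1.72% over the list, and the arms were not tested against it. Of the short-arm ones, 8 lay in the first 5 Mb, a stretch with 139 peaks in all.

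Across bins, the number of peaks and their strength were only weakly related. Over the 50 bins with at least 10 peaks, the number of peaks and the median fold of a bin had a Spearman rho of 0.11, given as a description of bins that share the same libraries. The highest bin median, 5.06, was in the bin from 14000001 to 15000000 with 12 peaks, and the lowest, 2.97, in that from 39000001 to 40000000 with 10 peaks.

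The distal long arm from 79000001 to 81000000 was the most crowded part of the chromosome. Its 132 peaks made up 9.62% of all chromosome 17 sites (8.17 to 11.3) in 2.47% of the span, a density 4.20 times that of the rest of the chromosome (3.48 to 5.03). This stretch was chosen for its density, so the ratio is a description. Among the 1 Mb bins of all autosomes that held peaks, the first of these bins had rank 2 and the second rank 5. Beyond 81 Mb, 5 more peaks lay in the 103 kb up to the last summit at 81103408.

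Sites in the crowded stretch were of ordinary strength. Their median fold was 3.66 (3.52 to 4.06), compared with 3.78 (3.69 to 3.88) in the rest of the chromosome. A fold of 5 was reached by 32 of 132 (24.2%, 17.7 to 32.2) against 277 of 1240 (22.3%, 20.1 to 24.7). The median summit held 59 reads (53 to 62) over a background of 7.65 (6.97 to 8.33), and in the rest 60 reads (59 to 62) over 8.21 (8.0 to 8.77). All these intervals overlap. What differed was spacing, which the choice of the stretch favours: 110 of the 132 summits (83.3%, 76.1 to 88.7) had a neighbour within 10 kb against 60.9% (58.1 to 63.6) elsewhere, and the median gap was 5.70 kb.

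Within the stretch the fullest pieces held no site with a fold of 10, a level that only 2.27% of the stretch's peaks reached. In pieces of 100 kb, the fullest were those from 79300001 to 79400000 and from 79400001 to 79500000, with 12 and 21 peaks. This included the longest run of the chromosome, 14 peaks from 79415986 to 79453621 linked by summit gaps of at most 10 kb, with a median fold of 3.58 and none above 5.93. A run of 9 peaks from 79367698 to 79381002 lay just before it, with a highest fold of 7.73. The sparsest pieces, from 79700001 to 79800000 and from 80600001 to 80700000, held 1 peak each, and the largest gap, 112 kb, ran from the summit at 80621990 to that at 80733520.

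All 3 sites of the stretch with a fold of at least 10 were in its second bin. They made up 2.27% of the stretch's 132 peaks (0.776 to 6.47), against 1.61% in the rest of the chromosome and 1.72% over the list. So few sites do not tell the bins apart. The strongest, from 80828877 to 80829664, reached a fold of 11.3 with 167 reads (143 to 194) over 7.20 background reads. The next, from 80288044 to 80288663, reached 10.9 with 97 reads (78.7 to 118) over 4.0. The third, from 80926991 to 80927569, reached 10.6 with 117 reads (96.8 to 140) over 5.17. Their fold intervals overlap, so their order is not resolved. The first of them lay in a run of 5 peaks from 80817274 to 80831134 and the last in a run of 6 from 80920220 to 80928358, while the other had no neighbour within 10 kb. In the first bin the folds of the top sites were lower: 8.12 (79081640 to 79082155, 131 reads), 7.73 (79372111 to 79373093, 108 reads) and 6.78 (79504566 to 79505114, 41 reads). The last of these reached its fold with few reads, since its background was only 2.48.

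**Figure D3:**
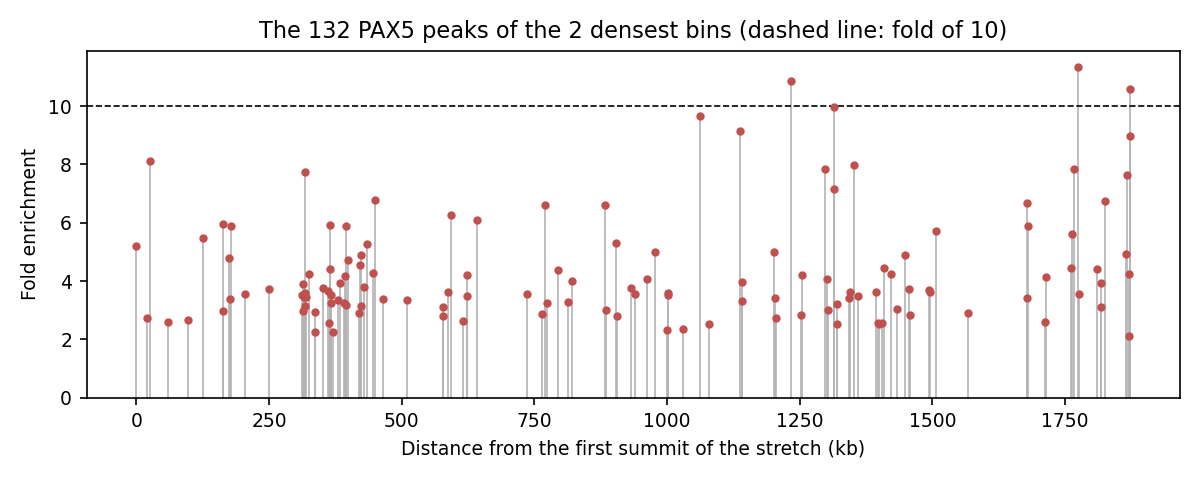
Fold enrichment of each of the 132 peaks in the 2 densest bins against the distance from the first summit there (kb). Points crowd in the left part at low fold, and the 3 sites above the dashed line at a fold of 10 (10.6 to 11.3) all lie in the right part.

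The site of highest enrichment in the whole list was the first listed peak of chromosome 17, from 212916 to 214239. It was 1324 bp wide with its summit at 213660, where 180 reads (155 to 208) stood over a background of 2.54 reads, giving a fold of 28.2 (24.3 to 32.6 with the background held fixed). Its rank was 1 by fold and 23 by −log10 q, the caller's adjusted p-value on a log scale, which was 112. By reads it ranked 361 in the list and 21 on the chromosome. The background was set by a 10 kb window, and was 1.2 times the genome mean of 2.12 reads and 0.314 times the chromosome 17 median. Set against the background of the next strongest site on the chromosome (10.0 reads), the same pileup would give a fold of 9.10. With the background of its neighbour described next, the fold would be 16.7.

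A partner lay beside it. The peak from 214471 to 215060 began 231 bp past the end of the first, and the summits were 1146 bp apart. Its summit carried 161 reads (137 to 188) over 5.0 background reads, and its fold of 14.9 (12.7 to 17.4) had rank 3 on the chromosome. The read intervals of both peaks overlap, while their fold intervals do not. Beyond this pair, which spans 2145 bp, the next summit was 403 kb away, in a peak from 617986 to 618422 with 41 reads and a fold of 3.56. The strongest site of the chromosome was thus part of an isolated pair and not of a crowded run.

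Below it, 4 sites had folds between 14 and 16. At the peak from 27439492 to 27440827, 308 reads (275 to 344) stood over 10.0 background reads, for a fold of 15.5 (13.8 to 17.3). This was the most reads on the chromosome and rank 7 in the list. It also led the chromosome by −log10 q (134, rank 6 in the list). After the partner peak at 0.21 Mb came the peak from 78914349 to 78915184, where 251 reads (221 to 284) over 8.33 gave a fold of 14.9. At the peak from 56404826 to 56410880, 278 reads (246 to 313) over 9.90 gave a fold of 14.1 (12.5 to 15.9). These 4 fold intervals overlap one another, and that of the top site lies above all of them.

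The other 5 of the 10 highest folds had moderate read numbers and low backgrounds. They lay at 1084378 to 1084931 (143 reads, background 4.95, fold 13.4), 41393033 to 41393786 (155 reads, 5.62, fold 13.0) and 81038861 to 81039765 (152 reads, 6.0, fold 12.1). The last 2 were at 3793222 to 3793822 (133 reads, 5.18, fold 12.0) and 70388716 to 70389216 (150 reads, 6.0, fold 11.9). Over all 23 sites with a fold of at least 10, reads ranged from 79 to 308 with a median of 152, and background from 2.54 to 10.0 with a median of 6.0. A high fold selects many reads and a low background by definition. These sites were spread over 17 bins, and 19 of the 23 had another summit within 10 kb (82.6%, interval 62.9 to 93.0), where the share over all 1372 peaks was 63.0%.

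Ranking by reads put other sites forward. The 10 with most reads had between 203 and 308, and 3 of them were also among the 10 highest folds. The peaks from 67577257 to 67578268 (252 reads over 13.0, fold 9.98), 80369559 to 80370196 (234 over 12.0, fold 9.98) and 66352428 to 66353139 (225 over 12.0, fold 9.60) fell just short of a fold of 10. The peaks from 75436656 to 75438134 (217 over 12.2) and from 55628432 to 55630159 (215 over 15.0) had folds of 9.16 and 7.46. The remaining pair, 1495944 to 1496897 and 28256522 to 28257548, had 206 and 203 reads and folds of 10.5 and 10.8. Since 1 tag per position and strand was kept and tags were extended to a fixed length of 225 bp, no base can carry more than 450 reads. The strongest summit reached 68.4% of that ceiling. Differences among the tallest summits may be compressed by this limit, which was not tested.

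Most peaks were narrow, with few broad exceptions. A width of at least 1000 bp was reached by 44 peaks (3.21%, 2.40 to 4.28), as on the other autosomes (3.2%, 2.96 to 3.45), and 23 peaks had the minimum of 225 bp. Broad peaks had a median fold of 5.70 (4.76 to 6.73), and 28 of the 44 reached a fold of 5, where the share was 22.5% over the chromosome and 25.0% over the list. Width and fold both come from the same pileup. Across the 1372 peaks, width had a Spearman rho of 0.58 with reads and 0.42 with fold, given as a description of peaks from the same libraries.

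The broadest was the peak from 56404826 to 56410880, at 6055 bp, which is 3.43 times the next width and 15.4 times the median. Its summit lay 1531 bp from its start and 4523 bp from its end, so the enriched region extended mainly to the right of the summit. It opened a run of 7 peaks that reached to 56429938. The next widths were 1764 bp (62224308 to 62226071, fold 6.51), 1734 bp (55802421 to 55804154, fold 7.20), 1728 bp (55628432 to 55630159, fold 7.46) and 1715 bp (79448957 to 79450671, fold 5.88). Width did not require height, as the second widest had 63 reads at its summit and the peak from 79823940 to 79825479, at 1540 bp, had 55. The other 4 of the 10 widest were 1538 bp (41437878 to 41439415), 1504 bp (41399750 to 41401253), 1479 bp (75436656 to 75438134) and 1449 bp (77910388 to 77911836), with folds of 6.41, 1.73, 9.16 and 10.1.

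Close spacing was common beyond the distal stretch. Linking summits at most 10 kb apart gave 298 runs of at least 2 peaks with 865 members, and left 507 peaks alone. Runs of 5 or more numbered 29 and held 185 peaks. After the 14-peak run, the longest had 13 peaks from 75417323 to 75462014, with a highest fold of 9.16, and 9 from 27046967 to 27077417, with a highest fold of 6.87. Peaks in runs had a median fold of 3.76 (3.65 to 3.85) and single peaks 3.81 (3.64 to 3.96), with overlapping intervals. A fold of at least 10 was reached by 19 of the 865 peaks in runs (2.20%, 1.41 to 3.41) and by 4 of the 507 single ones (0.789%, 0.307 to 2.01), again with intervals that overlap. Some neighbours may be parts of 1 enriched region, as 140 of the 1371 gaps between peak edges were 500 bp or less.

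The ChIP and the control were both high at a pair of sites near 41.4 Mb. A control background of at least 20 reads was present under 4 of the 1372 peaks (0.292%), where the share over all listed peaks was 0.309%. On the other autosomes that share was 0.210%. A background of at least 40 reads was present under 2 (0.146%), where the share over all listed peaks was 0.0796%. The peak from 41399750 to 41401253 carried 199 reads (172 to 229) over 63.0 background reads, a fold of 1.73 (1.5 to 1.98). The peak from 41465978 to 41466216 carried 176 reads (151 to 204) over 55.0, a fold of 1.75 (1.5 to 2.02). By reads they ranked 11 and 24 on the chromosome, and by fold they were the lowest of all 1372. Their backgrounds were 29.7 and 26.0 times the genome mean. On the other 21 autosomes together 1 peak passed 40 reads (0.00512%), with a background of 47.0. The whole list held 17 such peaks, as it also has peaks outside the autosomes. In that list the pair ranked 8 and 15 by background.

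High control was confined to these 2 summits among the 11 peaks between 41393033 and 41479868. The other 9 had backgrounds from 5.31 to 14.0 and folds from 2.31 to 13.0. The seventh strongest site of the chromosome by fold, from 41393033 to 41393786, lay 7.03 kb from the summit with the highest background, with 155 reads over 5.62. Nearer still, the peak from 41401721 to 41402204 had 96 reads over 10.0 and a fold of 4.89 at a distance of 1.61 kb. On the far side, the peak from 41465316 to 41465647, 681 bp before the summit with a background of 55.0, had 53 reads over 5.31 and a fold of 4.78. Between summits 1.61 kb and 681 bp apart, the background thus changed from 63.0 to 10.0 and from 5.31 to 55.0 reads. The value of 5.31 was set by a 10 kb window and the others by the window at the summit. The second change thus compares unlike windows.

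**Figure D4:**
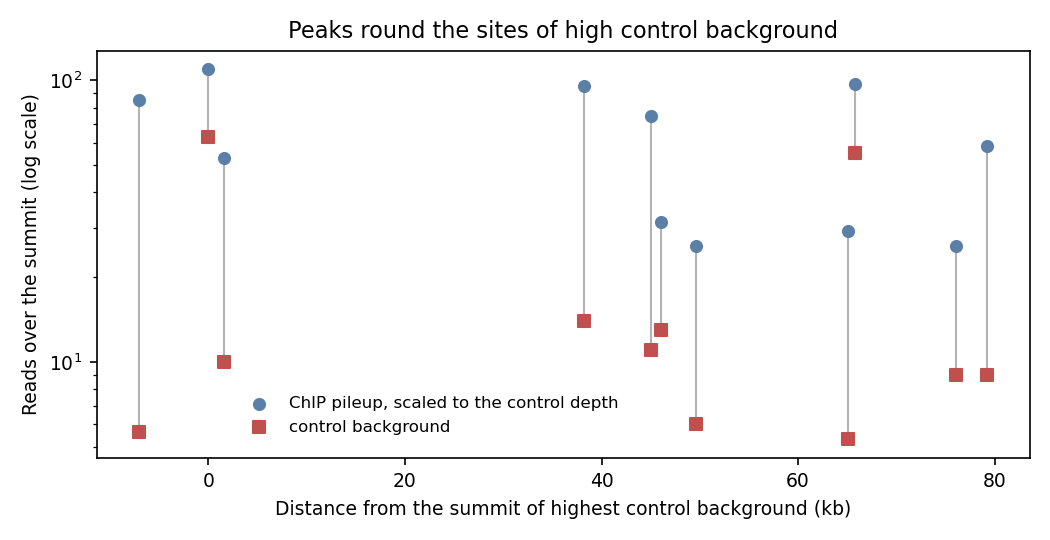
ChIP pileup scaled to the control depth (circles) and control background (squares), both in reads on a log scale, at the 11 peaks round the high-control sites against the distance from the summit of highest background (kb). The circle and square lie close together at 0 and 65.8 kb, where the background was 63.0 and 55.0 reads, and far apart at most of the other 9 peaks.

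The remaining high backgrounds lay far from the pair and from one another. A peak from 55596439 to 55596931 had 89 reads over 24.0, with a fold of 1.999, the lowest after the pair. A peak from 9936576 to 9937808 had 109 reads over 20 and a fold of 2.90. The fifth, from 16190146 to 16190671, had 89 reads over 19 and a fold of 2.50. Each had a lower fold than the chromosome's lower quartile of 3.14. These peaks were picked for a high background, which lowers the fold by definition.

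**Figure D5:**
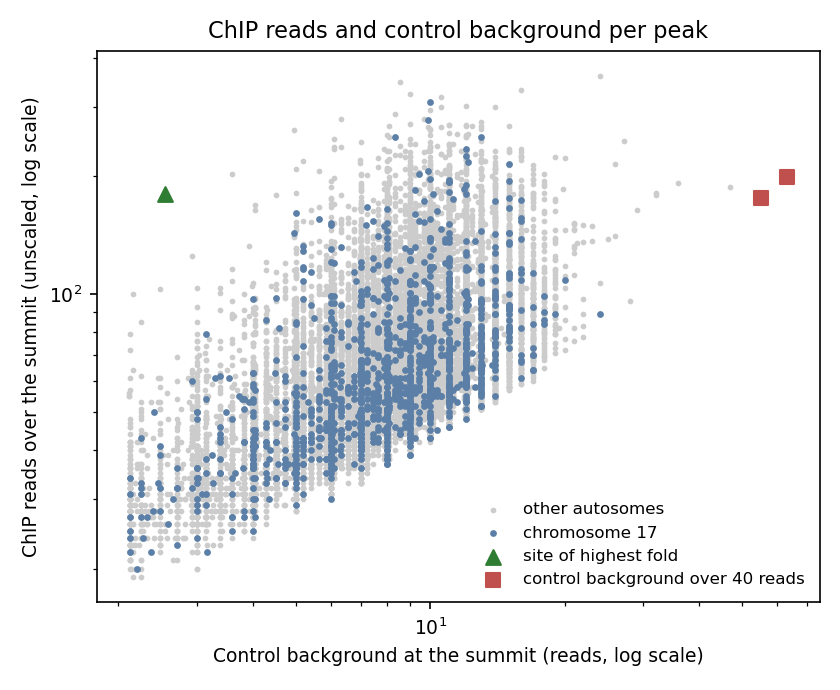
ChIP reads over the summit (not scaled, log scale) against control background (reads, log scale) for each peak of chromosome 17 (blue) and of the other autosomes (grey). The site of highest fold (triangle, 180 reads over 2.54) lies far to the left of peaks with as many reads, and the 2 sites with backgrounds of 63.0 and 55.0 (squares) lie to the right of all others.

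A second deposited list, cleaned in a way that no source used here describes, differed at 2 chromosome 17 peaks, both in the high-control stretch. It left out the peak from 41465978 to 41466216 and shortened that from 41465316 to 41465647 by 85 bp, so that it ends at 41465562. The shortened part does not hold that peak's summit at 41465513. All other 1370 peaks had identical borders in both lists, including the peak with the highest background of the chromosome.

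At the lower limit of the call, 3 peaks shared the lowest −log10 q of the chromosome, 1.32. The peaks from 61778405 to 61778862 and from 79426468 to 79426999 each had 39 reads (27.7 to 53.3) over 9.0, which gave a fold of 2.25. The peak from 44854411 to 44854710 had 30 reads (20.2 to 42.8) over 6.0 and a fold of 2.50. These folds exceed those of the high-control pair, while the −log10 q of that pair, with 199 and 176 reads, was higher at 4.44 and 3.92.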

How the data were processed

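The submitters' processing notes name BWA as the aligner and hg19 as the genome. MACS2 (2.1.1.20160309) called peaks on pooled ChIP reads, with a q-value threshold of 0.05 and extension to 225 bp, per the file headers. The number of pooled libraries is not stated. The deposited pileup signal is scaled by 0.550 to the control depth. The deposited fold enrichment is a ratio of pileup to control background, each plus 1, and the deposited −log10 q values come from the same comparison.

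Reads were recovered as pileup over scale (whole within 0.005 pileup units for 100% of peaks), and backgrounds from pileup and fold. The p recomputed from them differed from the deposited one by at most 0.05 (log10) at 100% of chromosome 17 peaks. Backgrounds were compared with 20 and 40 reads within 0.02 reads. Intervals are exact Poisson, Wilson, exact conditional (density ratios) or order-statistic (medians). The conditional and order-statistic intervals were tested on simulated independent counts and values, and the other kinds were not. All treat peaks as independent and cover only counting error or the position of a median. Tags per position were limited to 1, without molecular identifiers. Named sites are the chromosome's 10 highest by fold, reads and width, the 5 highest backgrounds, the densest bins with the 3 top sites at 79 to 81 Mb, the 3 lowest by q, and those that differ between lists. Other sites round the high-control pair, the partner peak and the longest runs were named after their values were seen. The members and all lists were chosen with earlier results of these data known. Computation used scipy 1.17.1, pandas 2.3.3 and numpy 2.4.6 under Python 3.11.15, and figures matplotlib 3.10.9.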

Additional observations from a re-analysis of the deposited data

How the results depend on the processing

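The 1372 peaks became 1371 in the cleaned list and 1232 after merging peaks within 500 bp, and 309 reached a fold of 5. The density ratio to the other autosomes, 2.35, fell to 2.12 (1.88 to 2.38) at a fold of at least 5. In the top 10% by −log10 q it fell to 2.1 (1.74 to 2.52). Both sets are parts of the main one, so these intervals do not test the change. The ratio lay at 2.27 and 2.42 after merging and over whole spans. The densest bin held between 57 and 70 peaks. The share at 79 to 81 Mb was 12.0% in the top 10% by q (15 of 125, interval 7.41 to 18.9) and between 8.69% and 10.4% otherwise. Merging raised the median fold of 3.77 to 3.89 and the median width to 415.5 bp, by construction. The strongest site by fold ranked 23 by q and 361 by reads. High-control sites numbered 2 with a cutoff of 40 reads and 3 in the cleaned list. The single ChIP pool leaves the variation among its libraries unknown. Alternatives for promoter and motif shares were not run, since the hg19 sequence and annotation were not used here. No paired analysis was possible because each group has 1 sample.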

Other observations

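The summit of a peak usually lay well inside its borders, but at 32 chromosome 17 peaks (2.33%, Wilson 95% interval 1.66 to 3.27) it was under 30 bp from an edge. On the other autosomes the share was 1.54% (1.38 to 1.72), and the intervals overlap. At 3 of them the distance was 0 or 1 bp. Of the 32, 25 had a fold under 3, where the lower quartile over all 1372 peaks was 3.14. The highest fold among the 32 was 3.73. The 32 included the peak from 41465978 to 41466216, with its summit 22 bp from the end and a background of 55.0 reads. They also included the peak from 44854411 to 44854710, with its summit on the last base, and that from 61778405 to 61778862, with its summit 19 bp from the start. These peaks were looked at after the values were seen.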
